A study of Homo sapiens with 8 samples.

Results

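The miRNAs described here are miR-21, miR-146a, miR-146b and miR-155, a set often linked to inflammation, as they were counted in exosomes of the human line THP-1. They were chosen by name, as every entry of the exosome miRNA table that starts with one of these 4 hairpin names. This gave 6 of 286 entries, namely miR-21-5p, miR-21-3p, miR-146a-5p, miR-146b-5p, miR-146b-3p and miR-155-5p. Exosomes, small vesicles that cells release, came from wild-type THP-1 cells, a monocytic leukaemia line grown with 10% fetal bovine serum. They were sequenced as M0-exo (1 library, 13584 miRNA counts) and M2-exo (1 library, 9929 counts), where M0 commonly stands for resting macrophages and M2 for alternatively activated ones. How the cells were polarised and how the vesicles were isolated is not stated in the labels. The recipients were wild-type Caco-2 cells, a colorectal carcinoma line used as a model of intestinal epithelium, given PBS (3 libraries, called untreated) or M2-exo (3 libraries, called treated). Dose, time and the origin of the replicates are not given. The p-values therefore rest on the spread among these libraries alone, and that spread may be technical.

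A miRNA is cut from a hairpin RNA with a 5p and a 3p arm, and one arm, loaded into an Argonaute protein, lowers mRNAs that pair with its seed, bases 2 to 8. In monocytes and macrophages, transcription of the MIR146A and MIR155 host genes is known to follow NF-κB signalling. miR-146a and miR-146b are known as brakes on Toll-like receptor and interleukin-1 signals through IRAK1 and TRAF6. miR-155 is known to strengthen inflammatory responses by lowering inhibitors such as SOCS1 and SHIP1, the product of INPP5D. miR-21 is abundant in many cell types and is known to lower the tumour suppressor PDCD4.

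The 4 mature sequences that carried nearly all counts of the set are shown because the seeds and the near identity of the miR-146 pair bear on how the counts can be read. They come from RefSeq (GRCh38.p14), run 5′ to 3′, and have the seed in capitals.
miR-21-5p: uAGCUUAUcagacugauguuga
miR-146a-5p: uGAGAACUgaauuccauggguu
miR-146b-5p: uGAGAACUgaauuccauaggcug
miR-155-5p: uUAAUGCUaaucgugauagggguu
The miR-146 pair shares its seed, so the set holds 3 seeds among these 4 miRNAs. From the 5′ end, miR-146a-5p and miR-146b-5p are identical over the first 17 bases, and over the 22 bases compared they differ at 2, written with the base of miR-146a-5p first as G18A and U21C. A read that ends before base 18 would match both, and how the counting treated such reads is not stated. The other members have no such near copy: the longest run that miR-21-5p shares with another entry of the table matched to RefSeq is 9 bases, and for miR-155-5p it is 6 bases. Of the 286 entries, 249 were matched to RefSeq by name. In RefSeq, miR-590-5p has the seed of miR-21-5p and miR-7153-5p has that of miR-146, and neither has an entry in the table.

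The genes lie on 4 chromosomes (GRCh38.p14, plus strand). The mature miR-21-5p lies on chromosome 17 from 59841273 to 59841294, miR-146a-5p on chromosome 5 from 160485372 to 160485393, miR-146b-5p on chromosome 10 from 102436520 to 102436542, and miR-155-5p on chromosome 21 from 25573983 to 25574006. In the gene table, MIR21 lies inside the span of VMP1, a gene of autophagy, 918 bases before its end. MIR146A lies inside the non-coding gene MIR3142HG and MIR155 inside MIR155HG.

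The 6 entries together held 4312 of the M0-exo counts and 2392 of the M2-exo counts, which is 31.7% (95% exact Clopper-Pearson interval 31.0 to 32.5) and 24.1% (23.3 to 24.9). Intervals here cover counting error only, since reads lacking molecular identifiers cannot be taken as independent molecules, and 1 library per group gives no replicate check. The values therefore compare 2 libraries, not 2 conditions. The share of the set was smaller in M2-exo by a ratio of 0.759 (0.722 to 0.798). Of all counts, the other 5 entries together held 622 counts, or 4.58%, in M0-exo and 455 counts, also 4.58%, in M2-exo (ratio 1.00, 0.885 to 1.13). This equality holds for all counts as the total and turns with the denominator. The 5 stood at 0.906 (0.801 to 1.02) without the counts of miR-21-5p in the totals, and at 0.879 (0.777 to 0.993) without the 10 most abundant entries. With TMM factors, a scaling that takes the middle of all ratios as equal, they stood at 0.794 (0.702 to 0.898), and with median ratio factors at 0.816 (0.721 to 0.922). The last 3 intervals lie below 1. Within those 5 the miR-146 pair and miR-155-5p lay on opposite sides.

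By count, miR-21-5p was the leading entry of both libraries, with 3690 counts in M0-exo and 1937 in M2-exo. In M0-exo miR-146b-5p came next in the set with 261 counts (rank 11 of the table), beside miR-155-5p with 255 (rank 12). The 2 could not be told apart there, since miR-146b-5p was 1.02 times miR-155-5p with an interval of 0.858 to 1.22. In M2-exo the order was miR-155-5p with 257 counts (rank 10) before miR-146b-5p with 147 (rank 14), and here miR-155-5p was 1.75 times as abundant (1.42 to 2.16). In both libraries miR-146a-5p was the lowest of the 4, with 104 counts (rank 20) in M0-exo and 51 (rank 28) in M2-exo. Between the other neighbours in the order of these 4 the intervals excluded equal counts. In M0-exo miR-21-5p was 14.1 times miR-146b-5p, and in M2-exo it was 7.54 times miR-155-5p, the next of the set there.

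**Figure D1:**
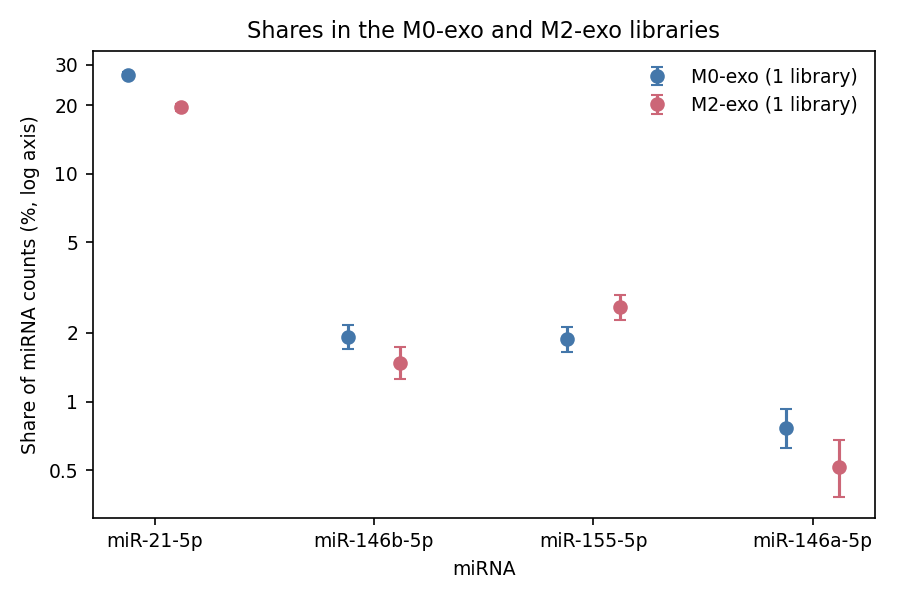
Share of all miRNA counts, in percent on a log axis, of miR-21-5p, miR-146b-5p, miR-155-5p and miR-146a-5p in the M0-exo and M2-exo libraries, 1 library each. Points are shares and bars are 95% exact intervals for counting error only. miR-21-5p stood at 27.2% and 19.5%, and miR-155-5p is the one of the 4 with the higher point in M2-exo.

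For miR-146a-5p the shares were 0.766% (0.626 to 0.927) in M0-exo and 0.514% (0.383 to 0.675) in M2-exo. For miR-146b-5p they were 1.92% (1.70 to 2.17) and 1.48% (1.25 to 1.74). Summed, the pair with the seed of miR-146 held 2.69% and 1.99% (ratio 0.742, 0.621 to 0.885). If each shared read was counted once, which is not stated, the sum does not depend on how such reads were divided within the pair. The interval of the sum lay below 1, as did those of both members. Within the pair, miR-146b-5p held 2.51 counts for each count of miR-146a-5p in M0-exo and 2.88 in M2-exo, which did not differ beyond counting error.

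miR-21-5p took 27.2% of the M0-exo counts and 19.5% of the M2-exo counts. Shares of a total depend on each other, so the other shares cannot be read apart from this difference. Which of them changed in amount cannot be told from shares. With miR-21-5p removed from the totals, 9894 counts remained in M0-exo and 7992 in M2-exo. On this basis miR-155-5p held 2.58% (2.27 to 2.91) of M0-exo and 3.22% (2.84 to 3.63) of M2-exo, a ratio of 1.25 (1.05 to 1.49) against 1.38 (1.15 to 1.65) of all counts. The same change put miR-146a-5p at 1.05% and 0.638% (ratio 0.607, 0.425 to 0.857) and miR-146b-5p at 2.64% and 1.84% (ratio 0.697, 0.566 to 0.857). The removal thus moved miR-155-5p nearer to 1 and the miR-146 pair farther below 1. With TMM factors, which divide each ratio by 1.26 (log2 0.33), miR-155-5p stood at 1.09 with an interval that holds 1 (0.917 to 1.31). There miR-21-5p stood at 0.570, miR-146a-5p at 0.533 and miR-146b-5p at 0.612, each with an interval below 1. Under every denominator tried, miR-21-5p and the miR-146 pair had a ratio below 1 with an interval that excludes 1, while for miR-155-5p the ratio stayed above 1 and its interval held 1 with TMM and with median ratio factors.

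These ratios are read against the whole table. Of 31 entries that reached 50 counts in 1 library or both, 0 (0%) lay past a ratio of 2 upward or 0.5 downward, and so none of the 4 members did. The 31 include entries with identical counts, which may not be distinct. miR-423-5p and miR-3184-3p each had 61 counts in M0-exo and 58 in M2-exo, and miR-7-5p and miR-3529-3p each had 69 and 48. An interval above 1 was found in 14 entries (45.2%), among them miR-155-5p, and an interval below 1 in 6 (19.4%), of which 3 were miR-21-5p, miR-146a-5p and miR-146b-5p. With TMM factors the shares were 6.45% above and 38.7% below, so the balance of entries above and below 1 turned with the denominator. Ordered from the lowest ratio, miR-146a-5p was at place 3, miR-21-5p at place 5, miR-146b-5p at place 6 and miR-155-5p at place 21 of 31.

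**Figure D2:**
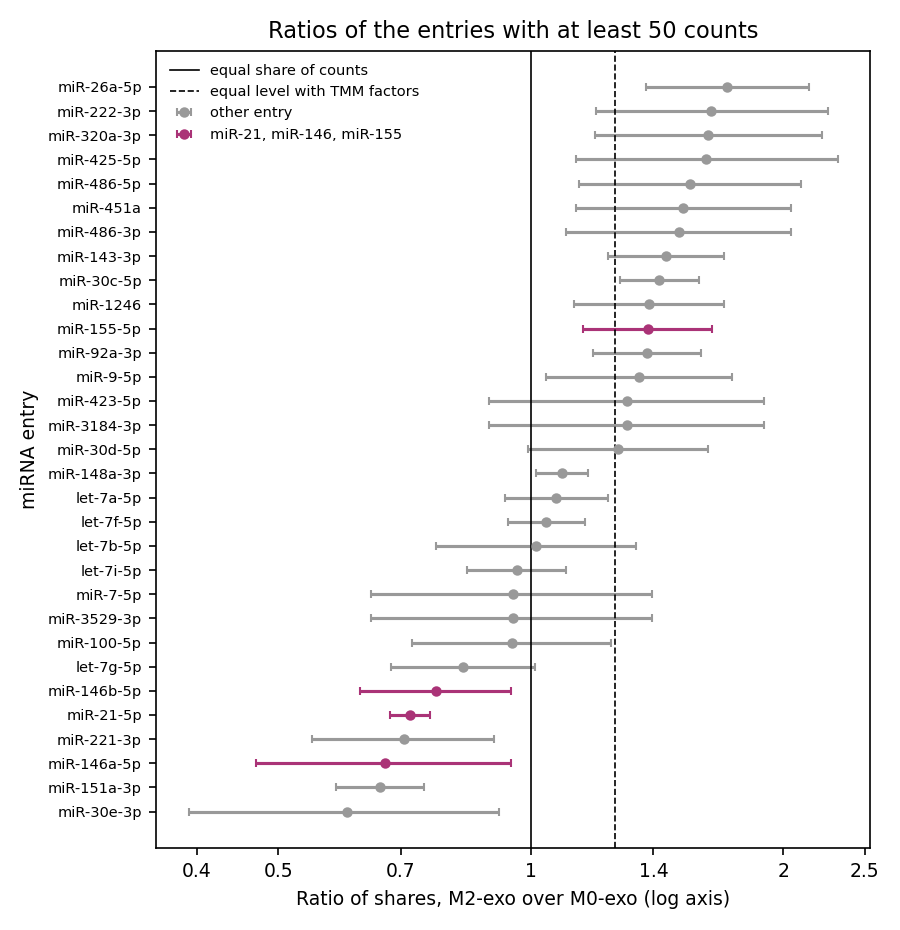
Ratio of the share in M2-exo over that in M0-exo (log axis) for the 31 miRNA entries that reached 50 counts in 1 library or both, ordered by ratio, with 95% exact intervals for counting error. The solid line marks equal shares and the dashed line, at 1.26, equal levels with TMM factors. miR-146a-5p, miR-21-5p and miR-146b-5p lie near the lower end, and miR-155-5p lies within the main body of entries above 1.

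Ratios between members within a library do not depend on any total. For each count of miR-21-5p there were 0.0691 counts of miR-155-5p in M0-exo and 0.133 in M2-exo, a ratio of ratios of 1.92 (1.59 to 2.31). Against miR-146b-5p, miR-155-5p went from 0.977 to 1.75 counts per count (1.79, 1.36 to 2.36), and against miR-146a-5p from 2.45 to 5.04 (2.06, 1.39 to 3.06). All 3 intervals lay above 1. The other 3 pairs gave intervals that hold 1: 1.07 (0.864 to 1.33) for miR-146b-5p over miR-21-5p, 0.934 (0.652 to 1.32) for miR-146a-5p over miR-21-5p, and 1.15 (0.764 to 1.74) for miR-146b-5p over miR-146a-5p. In the 2 libraries miR-155-5p therefore shifted relative to the other 3, while no shift among those 3 was detectable at this depth, which left room for changes up to the ends of these intervals. Among all 465 pairs of the 31 entries, 46.9% had an interval that excludes 1, so 3 of 6 is near the share in the table.

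**Figure D3:**
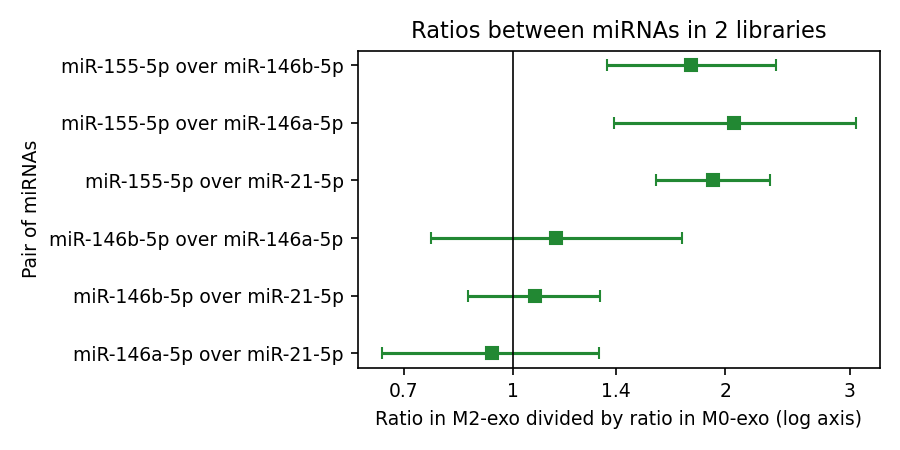
For each pair among miR-155-5p, miR-146b-5p, miR-146a-5p and miR-21-5p, the ratio of their counts in M2-exo divided by the ratio in M0-exo (log axis), with 95% exact conditional intervals for counting error and 1 library per group. The 3 pairs with miR-155-5p lie at 1.79, 2.06 and 1.92, and the other 3 have intervals that cross the line at 1.

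Each member was also set against the 27 entries of at least 50 counts outside the set. Relative to those, miR-21-5p was lower in M2-exo with an interval that excludes 1 in 20 of 27 cases, and miR-146a-5p and miR-146b-5p in 18 each. None of the 3 was higher than any of the 27 in this sense. miR-155-5p was higher than 9 of the 27, lower than 0, and not separable from 18. Among all 465 pairs of entries with at least 50 counts, 46.9% excluded 1 in either direction. The 20 and 18 of 27 exceed that share, and the 9 of 27 for miR-155-5p does not reach it. By likeness of the log2 ratio over the 2 libraries, the entries closest to miR-155-5p were miR-92a-3p (361 and 363 counts) and miR-1246 (191 and 193 counts), at distances of 0.0033 and 0.0038. Closest to miR-21-5p were miR-221-3p (192 and 99 counts; distance 0.03) and miR-151a-3p (825 and 399; 0.12), and the same 2 were closest to miR-146a-5p (0.07 and 0.02). Closest to miR-146b-5p were let-7g-5p (275 and 167 counts; 0.11) and miR-221-3p (0.13).

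By count, the neighbours of the members were as follows. In M0-exo miR-146b-5p stood just below let-7g-5p (275 counts) and miR-155-5p just above miR-221-3p (192 counts). In M2-exo miR-155-5p stood between miR-143-3p (324 counts) and miR-1246 (193 counts). There miR-146a-5p, with its 51 counts, came between miR-423-5p (58) and miR-3529-3p (48), whereas in M0-exo its 104 counts lay between those of miR-9-5p (126) and miR-451a, a miRNA of red blood cells (90). It thus had lower neighbours in M2-exo, as its own rank shows.

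The hairpins are shown for the arm result, again from RefSeq (GRCh38.p14) and 5′ to 3′, with the 5p arm in capitals.
MIR21: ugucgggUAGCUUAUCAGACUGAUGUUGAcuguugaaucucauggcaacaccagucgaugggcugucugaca
MIR146A: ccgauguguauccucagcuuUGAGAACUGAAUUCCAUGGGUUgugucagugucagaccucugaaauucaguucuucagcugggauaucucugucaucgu
MIR146B: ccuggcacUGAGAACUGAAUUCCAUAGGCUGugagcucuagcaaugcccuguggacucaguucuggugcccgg
They are 72, 99 and 73 bases long, on chromosome 17 from 59841266 to 59841337, on chromosome 5 from 160485352 to 160485450 and on chromosome 10 from 102436512 to 102436584. Nearly all counts came from the capitals. miR-21-3p held 1 count in M0-exo beside 3690 of miR-21-5p, and 0 in M2-exo, where its exact interval reaches up to 0.0371% of that library. miR-146b-3p likewise held 1 count and 0 counts. The 5p arm thus took 99.97% of the counts of the miR-21 hairpin in M0-exo and 99.6% of those of miR-146b (97.9% at the lower end of its interval). No entry of the table is named miR-146a-3p or miR-155-3p. Use of 1 arm was common in the table. Among the 24 other hairpins with at least 50 counts, 17 in M0-exo and 18 in M2-exo had at least 99% on 1 arm. In this the 4 hairpins did not stand apart. The most even was miR-486, with 50.3% and 51.1% on its larger arm. Its arms had 84 and 83 counts in M0-exo, and 95 and 91 in M2-exo. The 24 include miR-423 and miR-3184, whose larger arms had the same counts as each other in both libraries. So did those of miR-7 and miR-3529. Whether the same reads were counted under several names was not tested.

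Other miRNA groups in the libraries give the setting. Of 6 miRNAs typical of haematopoietic and myeloid cells, 5 had entries, with 14 counts in M0-exo and 8 in M2-exo. miR-142-3p and miR-223-3p, defining for these cells, each had 2 counts in M0-exo and 0 in M2-exo, and miR-150-5p had no entry. Of 10 epithelial miRNAs, 8 had entries, with 50 and 67 counts (ratio 1.83, 1.25 to 2.70). TMM scaling gave 1.46 for them, and its interval holds 1 (0.994 to 2.14). Of 6 red cell miRNAs, 4 had entries, with 264 and 291 counts (ratio 1.51, 1.27 to 1.79), and TMM scaling gave 1.20 (1.01 to 1.42). The 4 were miR-451a, miR-16-5p (7 and 5 counts) and both arms of miR-486. The intervals take the near-equal counts of these arms, given above, as separate. Of all counts the shares of the red cell and epithelial groups were thus larger in M2-exo, as was that of miR-155-5p. The THP-1 cells were grown with 10% fetal bovine serum. Where the red cell and epithelial miRNAs came from, and the part of that source in the values of the 4 members, was not tested.

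The recipient cells were read for the genes that give rise to these miRNAs and for mRNAs reported as their targets. Library totals ranged from 15608937 to 18324599 counts. Untreated 1 stood apart by its mitochondrial share, 4.16% of counts against 7.01% to 8.11% in the other 5, and had the smallest total. The untreated libraries also differed among themselves. A chi-square of counts per degree of freedom was 31.5 to 92.4 between untreated libraries and 15.1 to 27.6 between treated ones. Between the groups it was 8.87 to 67.9. Untreated 2 was nearer to each treated library (8.87, 10.0 and 17.4) than to untreated 1 (46.2) or untreated 3 (31.5). Values without untreated 1 are given below for SOCS1, for the medians of the miR-146 and miR-155 lists, and at the end for named genes whose sign turned. Why untreated 1 stood apart was not tested. Of the epithelial markers, 9 of 10 had enough counts to test, and CDX1 did not. Their summed level was 9699 to 12790.5 CPM (TMM-scaled counts relative to library size) in untreated and 8799.7 to 11685 CPM in treated cells. The 14 monocyte and macrophage markers summed to 16.5 to 21.3 CPM in untreated and 13.1 to 20.1 CPM in treated cells. Of these markers, 5 had enough counts to test, namely CD14, CSF1R, LYZ, AIF1 and FCER1G. CD14, the highest, had 94, 158 and 127 counts in untreated and 114, 112 and 129 counts in treated cells. CD68, ITGAX, FCGR3A and TYROBP had 0 counts in all 6 libraries, and the rest had too few to test. The labels call both lines stem cells; the epithelial markers were abundant in the Caco-2 libraries.

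MIR21, MIR146A, MIR146B and MIR155 were listed with 0 counts in all 6 Caco-2 libraries, where 3 counts would make 0.164 to 0.192 CPM in a library. The rows count the short gene itself in an mRNA library, not the mature miRNA, and reads of MIR21, MIR146A and MIR155 would also overlap their hosts. The labels do not state whether reads that overlap several genes were counted, and these zeros say nothing of the mature miRNA. The host VMP1 (ENSG00000062716, chromosome 17 from 59707192 to 59842255) stood at 210.1, 164 and 154 CPM in untreated 1 to 3 and at 191, 176 and 165 CPM in treated 1 to 3. The groups overlapped fully, with a log2 fold change of 0.01 (SE 0.16). MIR3142HG (chromosome 5 from 160438594 to 160487426) stood at 1.46, 1.01 and 1.07 CPM in untreated and 1.24, 1.72 and 1.67 CPM in treated cells. Its groups also overlapped (log2 0.39, SE 0.35). MIR155HG had 0, 3 and 7 counts in untreated and 5, 1 and 0 in treated cells, too few to test.

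Treated and untreated Caco-2 cells were compared for lower target mRNA, 1 way in which exosomal miRNA could act in the recipient. An effect on protein alone would not be seen in these libraries. With PBS as the only comparator, a change in a target could not be assigned to the miRNAs. Lists of reported targets held 19 genes for miR-21, 17 for miR-146 and 31 for miR-155, with 3 genes on 2 lists each, so 64 genes in all. Of these, 56 had enough counts to test. None of them was lower or higher in treated cells by edgeR's quasi-likelihood test with Benjamini-Hochberg adjustment over all 15084 genes tested (adjusted p = 0.9999 for the smallest), and the test called 0 genes (0%) in the whole table. By edgeR's unadjusted p under 0.05 the count was also 0 among the 56, where the table holds 53 higher (0.351%) and 58 lower genes (0.385%). At shares this small, a count of 0 among 56 does not set the targets apart from the table. That 0 became 1 or 2 under 4 of the 11 alternatives, each fitted with edgeR. Without a filter on low counts it was TIMP3 (log2 -0.37, edgeR unadjusted p = 0.0298, adjusted p = 0.99998), and with the replicate number as a block it was CEBPB (0.34, edgeR unadjusted p = 0.0461, adjusted p = 0.9999). Without untreated 2 they were TIMP3 (-0.54, edgeR unadjusted p = 0.0161) and MYB (0.98, edgeR unadjusted p = 0.0230), both with an adjusted p of 0.9999. Without untreated 3 it was IKBKE (0.55, edgeR unadjusted p = 0.0207, adjusted p = 0.9997). MYB, a transcription factor gene on the miR-155 list, is named after its values were seen. Without untreated 1 the count among the targets was 0, while 370 of all 15564 genes tested (2.38%) reached this p. The 3 treated CPM values lay above the 3 untreated ones in 3 of the 56 genes (5.36%, against 1.65% of all genes) and below them in 0 (against 2.3%). The SE of a log2 fold change had a median of 0.18 over the 56, and 55 of them had a change of less than 0.5 in size.

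The target list of miR-146 had 14 tested genes, 7 above and 7 below 0, with a median log2 fold change of 0.0004 against -0.01 for all genes. IRAK1, the kinase that passes on interleukin-1 and Toll-like receptor signals, stood at 131, 181 and 248 CPM in untreated and 147, 206 and 218 CPM in treated cells. The untreated values spread more widely than the treated ones and enclosed them (log2 0.03, SE 0.24). TRAF6, the ubiquitin ligase next in that pathway, stood at 23.8, 20.5 and 16.8 CPM in untreated and 20.7, 24.2 and 19.3 CPM in treated cells, with overlap (log2 0.07, SE 0.20). The related kinase gene IRAK2 stood at 20.8 ± 0.928 and 20.3 ± 1.56 CPM (SD, n = 3 each). At the ends of the list were NOTCH1, a receptor of cell fate (log2 0.21, SE 0.24), and RELB, an NF-κB subunit (0.12, SE 0.30), on the upper side. SORT1, a sorting receptor (-0.07, SE 0.12), and SMAD4, a mediator of TGF-beta signals (-0.06, SE 0.20), were on the lower side. TLR4, the lipopolysaccharide receptor, and MMP16 had 0 counts in all 6 libraries, and CXCR4 had too few to test.

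For miR-155, 27 of 31 listed genes were tested, 15 above and 12 below 0, with a median log2 fold change of 0.02. INPP5D, the textbook target in leukocytes, had 0 counts in all 6 libraries. SOCS1, an inhibitor of cytokine signals, was low, at 1.59, 4.08 and 5.40 CPM in untreated and 3.60, 4.82 and 5.35 CPM in treated cells (log2 0.31, SE 0.40). Untreated 1 was the low value there, and the other 5 values lay between 3.60 and 5.40 CPM. Without untreated 1 the log2 fold change of SOCS1 was -0.038, and the median of the miR-155 list was 0.11, that of the miR-146 list 0.075 and that of all genes -0.0036. JARID2, a partner of Polycomb complexes, stood at 44.8, 41.1 and 42.5 CPM in untreated and 39.6, 41.8 and 42.9 CPM in treated cells (log2 -0.05, SE 0.14). BACH1, a repressor of antioxidant genes, stood at 63.5, 54.8 and 47.3 CPM and at 52.5, 48.5 and 51.7 CPM (log2 -0.12, SE 0.16). Neither group of values was separate from the other for these 3 genes.

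At the upper end of the miR-155 list, IKBKE, an NF-κB and interferon pathway kinase, stood at 12.6, 15.0 and 18.7 CPM in untreated and 20.7, 19.9 and 19.6 CPM in treated cells. All treated values were above the untreated ones, yet the change did not pass (log2 0.38, SE 0.20, edgeR unadjusted p = 0.0873, adjusted p = 0.9999). FOXO3, a forkhead factor, showed the same order of values, at 57.4 ± 5.85 and 66.1 ± 2.56 CPM (log2 0.20, SE 0.14), and did not pass. CEBPB, a factor of inflammatory gene control, had the largest SE of the 56 tested targets, at 36.1 ± 22.6 and 45.9 ± 30.1 CPM (log2 0.34, SE 0.52). On the lower side SMAD2 was at -0.16 (SE 0.19) and the hypoxia factor HIF1A at -0.08 (SE 0.20).

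**Figure D4:**
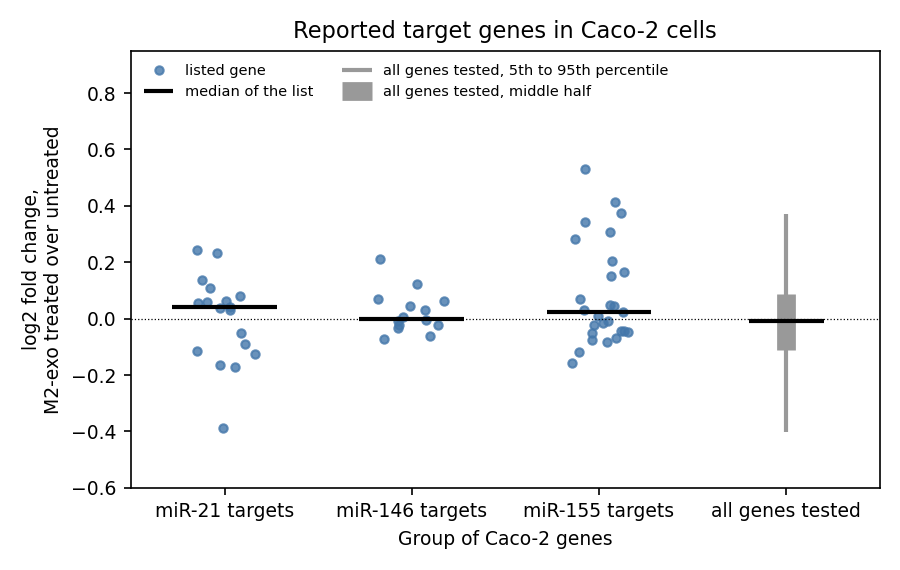
log2 fold change in Caco-2 cells, M2-exo treated over untreated (3 libraries each), of each tested gene on the lists of reported miR-21, miR-146 and miR-155 targets (points) with the list median (black bar), beside all 15084 genes tested (grey, middle part from the 25th to the 75th and line from the 5th to the 95th percentile). The medians of 0.04, 0.0004 and 0.02 lie next to the median of all genes, -0.01.

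For miR-21, 18 of 19 listed genes were tested, 11 above and 7 below 0, with a median of 0.04. PDCD4, an inhibitor of translation, stood at 52.1, 64.7 and 52.3 CPM in untreated and 64.9, 42.4 and 48.7 CPM in treated cells (log2 -0.12, SE 0.19). Its groups overlapped. The lowest value of the list was that of TIMP3, a metalloproteinase inhibitor, at 324, 205 and 298 CPM in untreated and 177, 229 and 226 CPM in treated cells (log2 -0.39, SE 0.19, edgeR unadjusted p = 0.0731, adjusted p = 0.9999). Untreated 2 lay among the treated values. PPARA (-0.17) and SPRY2 (-0.16) were also on the lower side. On the upper side were SPRY1 (0.24), the receptor gene TGFBR2 (0.23), whose groups did not overlap, and BTG2 (0.14).

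**Figure D5:**
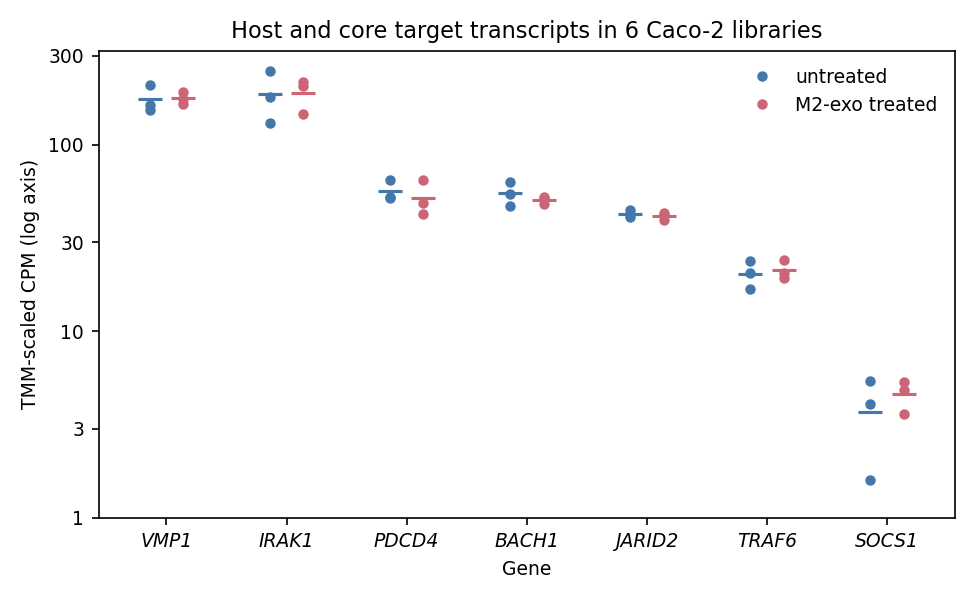
TMM-scaled CPM (log axis) of the miR-21 host VMP1 and of 6 core targets in each of 3 untreated and 3 M2-exo treated Caco-2 libraries, with points for libraries and bars for group means. Levels are to be compared within a gene only, since they are not per length. Treated and untreated values overlap in each of the 7 genes, and untreated 1 is the low point of SOCS1 at 1.59 CPM.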

How the data were processed

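For 2 exosome libraries, the authors deposited a table of miRNA read counts with matching TPM. Each deposited TPM value is the count over the column total (largest difference 4.06e-05), so only counts were used. Per the submitters' processing notes, Bowtie was used, with version and miRNA database not given in the sources used here. For Caco-2, the authors deposited gene counts, and CASAVA, HISAT2, featureCounts and GRCh38 appear in the same notes. A total of 6 columns matched no sample and were not used.

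Shares have exact Clopper-Pearson intervals, and ratios of shares or of miRNA pairs have exact conditional intervals (scipy 1.17.1). With 1 exosome library per group there is no test. For Caco-2 counts the test was that of edgeR 4.0.16 under R 4.3.3 (filterByExpr, TMM, quasi-likelihood F test, 2-sided, Benjamini-Hochberg at 0.05, replicate number not a block). An SE is the size of the change over the square root of F. Scripts were tested on simulated data. Alternatives were other denominators and minimums, DESeq2 1.42.0, RLE, no filter, limma-voom (limma 3.58.1), a replicate block and each library left out. Named were all members, the 2 entries of closest ratio, neighbours by count, shared seeds, host genes, core targets, and the 3 highest and 3 lowest changes per target list at a mean CPM of at least 5. The values of 1 target gene are not reported here. Members and lists were chosen with earlier results of these data known. Library totals are in the report.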

Additional observations from a re-analysis of the deposited data

How the results depend on the processing

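Depth limits the exosome values: 51 counts of miR-146a-5p in M2-exo leave its ratio anywhere from 0.470 to 0.947. miR-21-5p stood at 0.718 of all counts, 0.650 without its own counts, 0.630 without the 10 most abundant entries, 0.570 with TMM and 0.586 with median ratio factors. The 6 members together stood at 0.759, and at 0.687, 0.666, 0.602 and 0.619 in that order. The 5 without miR-21-5p went from 1.00 to 0.879 without the 10 most abundant, 0.794 with TMM and 0.816 with median ratio factors. For miR-155-5p TMM gave 1.09 and median ratio factors 1.12 (0.942 to 1.34), for miR-146b-5p TMM gave 0.612, and for the miR-146 pair these gave 0.589 and 0.605. Counting equal-count entries once moved none of these beyond its interval. Of the 21 entries with at least 100 counts, 9 had an interval above 1, against 14 of 31 at 50 counts. With TMM 2 of the 31 lay above 1 and 12 below. Entries past the 2-fold limits numbered 6 of 64 at 20 counts. With TMM they numbered 1 of 31, miR-30e-3p (named after its values were seen).

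For Caco-2, DESeq2, RLE and limma-voom called 0 genes. An unadjusted p under 0.05 was reached by 124 genes with DESeq2, 104 with limma-voom and 111 with edgeR. Without a filter on low counts edgeR called 6 genes. Leaving out 1 library gave 0 to 1, the 1 being BOLA2B without treated 2 (named after its values were seen). None of these is on a target list. With the replicate number as a block 0 genes were called, and 211 had an unadjusted p under 0.05. The numbers were not taken to pair the libraries, since the labels do not say that equal numbers share a batch. Deviations of same-numbered libraries correlated at 0.28, -0.06 and 0.48, and those of differently numbered ones at -0.42 to 0.18. Pairing can therefore not be told from these values. The median of the miR-21 list ranged from -0.052 to 0.028 when 1 library was left out, with the lowest value without treated 3. That of the miR-146 list ranged from -0.021 to 0.075 and that of the miR-155 list from -0.0071 to 0.11. No named gene passed under any alternative. Of 264 alternative values of 24 named genes, 22 had the opposite sign, each with 1 library left out. Leave-one-out log2 ranges of these 14 genes were -0.20 to 0.00097 for BACH1, -0.064 to 0.26 for BTG2, -0.31 to 0.95 for CEBPB and -0.23 to 0.15 for HIF1A. They were -0.16 to 0.30 for IRAK1, -0.072 to 0.020 for IRAK2, -0.056 to 0.0049 for JARID2 and -0.29 to 0.012 for PDCD4. They were -0.065 to 0.42 for RELB, -0.24 to 0.016 for SMAD2, -0.21 to 0.080 for SMAD4, -0.038 to 0.69 for SOCS1, -0.034 to 0.20 for TRAF6 and -0.058 to 0.16 for VMP1. Without untreated 1 the sign turned for SOCS1, as given above, and for IRAK1 (-0.16), RELB (-0.013) and SMAD4 (0.080). It also turned for BACH1 (0.00097), SMAD2 (0.016) and HIF1A (0.15), and CEBPB stood at 0.0056. The other reversals came with another library left out. The cause of the reversals was not tested.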
